A study of Rattus norvegicus with 939 samples.

Results

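The response of primary rat hepatocytes, liver cells isolated from rats and kept in culture, to the nitrosoureas carmustine, lomustine and streptozotocin was measured on Affymetrix rat expression arrays. The arrays of interest were those whose compound label is carmustine, lomustine or streptozotocin, which were 18 of the 826 treated arrays in a series of 939 arrays with 113 vehicle controls. Carmustine was given at 550 µM, lomustine at 560 µM and streptozotocin at 3000 µM, all in dimethyl sulfoxide (DMSO), for 0.67 d and for 1 d with 3 arrays at each time. Each compound was set against the DMSO arrays (0 µM) that the labels assign to it as controls, which were 3 at each time for carmustine, 4 for lomustine and 4 for streptozotocin, with no control array shared between the 3 compounds. The study describes the wider resource as made from tissues of male rats and from cultured hepatocytes, and the strain and the sex of the hepatocyte donors were not given in the sources used here. The titles of the control arrays carry a code that differed between replicate numbers of a group and was the same at both times, and those of the treated arrays carry none. The labels did not state what the code marks or whether arrays of a group came from separate cultures or animals, so p-values are taken to measure only the spread between these arrays, which may be technical. The main fit treated all arrays as independent, with no replicate term. Its SE and adjusted p therefore take no account of a link between arrays of the same number, at both times or between treated and control arrays.

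Nitrosoureas break down in water to reactive species that attach alkyl groups to DNA. Carmustine carries a pair of chloroethyl arms, and lomustine has a cyclohexyl ring in place of one of them; both leave chloroethyl adducts that can turn into crosslinks between the DNA strands, and both release isocyanates that react with proteins such as glutathione reductase. Streptozotocin is a methylnitrosourea joined to a glucose sugar, which methylates DNA, enters cells through the glucose transporter GLUT2 and is known for killing pancreatic beta cells. Cells answer alkylated bases with the repair protein MGMT, with base excision repair and poly(ADP-ribose) polymerase, which consumes NAD, and with p53, the transcription factor that switches on genes of cell cycle arrest and repair.

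All values below are log2 expression levels normalised by RMA (robust multi-array average), in which a step of 1 is a doubling of signal, and a change is treated minus own controls on that scale with exposure time in the fit. A gene was called when its limma adjusted p, by Benjamini-Hochberg over the 14218 genes, was 0.01 or less and its change was at least 1.5-fold. The hepatocyte label fitted the markers, in that 9 measured hepatocyte genes had a median level at the 99.7th percentile of all genes in the treated arrays of each compound. The array medians of the 18 treated arrays and their controls lay between 5.52 and 5.63, and no pair of arrays was identical. One lomustine control array (0.67 d, replicate 4) stood apart from its group in the gene length comparison below, and the counts that use it are given without the control arrays numbered 4 where they moved by more than 1.5 times.

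Lomustine called 3898 genes (27.4% of those tested), of which 1677 were higher and 2221 lower, and carmustine called 3342 (23.5%), of which 1322 were higher and 2020 lower. Streptozotocin called 687 genes (4.83%), of which 245 were higher and 442 lower, and 309 were called without its arrays numbered 3. These counts are set side by side only, since the doses differed. Under subtraction of each array's median, the median change of all genes moved to 0.344 with carmustine, 0.335 with lomustine and 0.052 with streptozotocin, against 0.09, 0.092 and 0.022 as deposited. The share of called genes that were higher was then 67.5%, 65.5% and 41%, against 39.6%, 43% and 35.7%, so the balance of higher and lower genes with carmustine and lomustine depended on the scaling.

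A group of 506 genes (3.56%) was called in the same direction with all 3 compounds, 133 higher (0.935%) and 373 lower (2.62%), and the count was 196 without the arrays numbered 3. Because the doses and control sets were separate, their values are described compound by compound. Mdm2, which encodes the ubiquitin ligase that p53 induces and that in turn degrades p53, was among the 133. In carmustine-treated arrays its lowest, median and highest levels were 11.67, 11.97 and 12.26, against 10.24, 10.63 and 10.88 in their controls. In lomustine-treated arrays they were 11.59, 11.76 and 11.99, against 10.12, 10.37 and 10.50. In streptozotocin-treated arrays they were 11.57, 11.80 and 11.98, against 10.10, 10.44 and 10.90. Every treated array lay above every one of its controls, and the changes were 1.35 ± 0.14 with carmustine, 1.45 ± 0.08 with lomustine and 1.31 ± 0.10 with streptozotocin (SE; limma adjusted p of 5.68e-06, 8.15e-10 and 1.41e-06).

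Slc4a11, a membrane transporter of the bicarbonate transporter family, had the highest smallest change among the genes that were higher with all 3. Its 0.67 d arrays read 7.71, 7.96 and 8.66 with carmustine, against 6.53, 6.64 and 6.56 in controls, and its 1 d arrays read 8.97, 9.56 and 9.47, against 6.50, 6.65 and 6.39. With lomustine the treated arrays ran between 8.25 and 10.15 with a median of 9.06, against 6.14 to 6.86 with a median of 6.51. With streptozotocin they ran between 8.49 and 9.87 with a median of 8.86, against 6.27 to 6.76 with a median of 6.46. No treated array overlapped its controls, and the changes were 2.18 ± 0.23, 2.57 ± 0.18 and 2.58 ± 0.19. Lig4, the DNA ligase that seals double-strand breaks, had changes of 1.60 ± 0.15 with carmustine, 1.97 ± 0.12 with lomustine and 1.84 ± 0.15 with streptozotocin, again with no overlap between treated and control arrays. Polh, the polymerase that copies past damaged bases, had changes of 1.26 ± 0.21, 1.41 ± 0.16 and 1.16 ± 0.18. Ddias, a gene named for suppressing apoptosis after DNA damage, had changes of 1.90 ± 0.19, 1.71 ± 0.09 and 1.50 ± 0.18. Fosl1, a subunit of the AP-1 transcription factor, was higher by 2.66 ± 0.19, 2.82 ± 0.12 and 1.07 ± 0.20. The call of Polh and of Fosl1 with streptozotocin was lost when the arrays numbered 3 were left out, at 1.10 and 1.00.

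**Figure D1:**
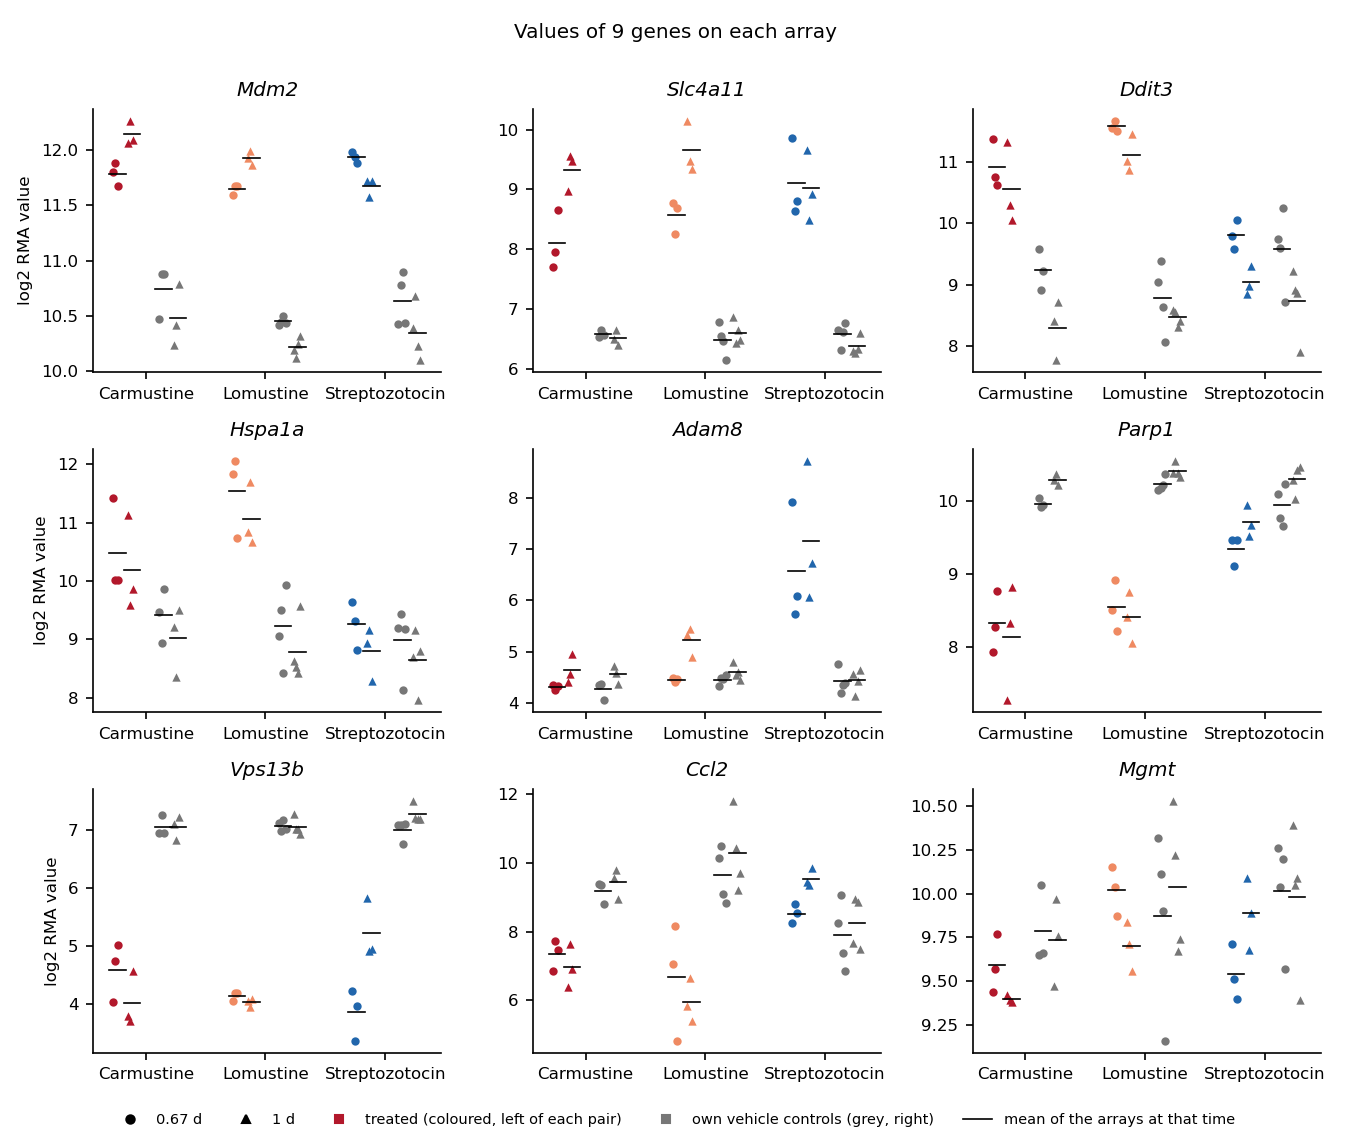
log2 RMA value (vertical axis) of 9 genes on each treated array (coloured) and each of its vehicle control arrays (grey, to the right), with circles for 0.67 d, triangles for 1 d and bars for the mean at each time. Mdm2 and Slc4a11 sit above and Vps13b below the controls with all 3 compounds, Ddit3 is apart from its controls with carmustine and lomustine only, and Adam8 is apart with streptozotocin, where its 6 arrays lie between 5.74 and 8.72.

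The p53 target list held 34 measured genes of 42. With streptozotocin 13 of them were higher and 0 lower, against 1.72% and 3.11% of all genes, and the list's median change was 0.57 against 0.022 for all genes. With lomustine 12 were higher and 6 lower (11.8% and 15.6% of all genes), with a median of 0.28 against 0.092. With carmustine 10 were higher and 5 lower (9.3% and 14.2% of all genes), with a median of 0.13 against 0.09. Mdm2, Polh, Aen, Phlda3, Plk2 and Ppm1d were called higher with each compound. Ppm1d, the phosphatase that turns the damage signal off again, had changes of 1.52 with carmustine, 1.58 with lomustine and 0.78 with streptozotocin. Cdkn1a, which encodes the p21 inhibitor of cyclin-dependent kinases, read 12.26, 12.49 and 12.70 (lowest, median, highest) in carmustine-treated arrays, against 10.36, 10.55 and 10.86 in controls. It read 11.23, 11.98 and 12.53 with lomustine, against 9.69, 10.57 and 10.92. With streptozotocin it read 10.07, 10.92 and 11.27, against 9.45, 9.99 and 10.58, and there the groups overlapped. Its changes were 1.88 ± 0.11, 1.51 ± 0.21 and 0.74 ± 0.21, the last of which missed the threshold (limma adjusted p of 1.91e-07, 1.45e-05 and 0.0194). With a replicate block the streptozotocin change of Cdkn1a was called higher, at 0.74 ± 0.13 (adjusted p of 0.00107).

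The p53 targets that were lower with carmustine and lomustine made up a share of the list near that of all genes. Among them, Sulf2, an extracellular heparan sulfatase, had changes of -1.72 with carmustine, -1.83 with lomustine and 0.18 with streptozotocin. Sesn1, a stress-induced regulator of mTOR, had changes of -1.16, -1.13 and 0.03, and Apaf1, the scaffold of the apoptosome, of -0.79, -1.53 and -0.19. The streptozotocin values of all 3 genes missed the threshold. Genes of the list called with streptozotocin alone were Bbc3, which encodes the apoptosis activator PUMA, at 0.82, Ei24 at 0.82, Perp at 0.74, the death receptor Fas at 0.69, Cd80 at 0.66 and Pml at 0.62. Bbc3 had changes of 0.58 with carmustine and 0.51 with lomustine at adjusted p of 0.000208 and 9.58e-05, just under the fold bound, so the difference in calls for that gene is one of the bound.

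Mgmt, which removes alkyl groups from guanine, read 9.38, 9.43 and 9.77 in carmustine-treated arrays, against 9.47, 9.71 and 10.05 in controls, and the groups overlapped. Its changes were -0.27 ± 0.10 with carmustine, -0.09 ± 0.18 with lomustine and -0.29 ± 0.15 with streptozotocin, and none was called (limma adjusted p of 0.0491, 0.662 and 0.229). Mpg, the glycosylase that cuts out methylated bases, had changes of 0.26 ± 0.10, 0.53 ± 0.11 and 0.37 ± 0.11, below the fold bound in each case. Of the 18 measured genes of alkylation and base excision repair, 1 was higher and 2 were lower with carmustine, 2 were higher and 1 was lower with lomustine, and 0 were higher and 1 was lower with streptozotocin. Of all genes, 23.5%, 27.4% and 4.83% were called with the 3 compounds. Fen1, the flap endonuclease of long-patch repair, was higher with carmustine and lomustine, by 0.83 and 1.11.

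Parp1, the enzyme that binds DNA breaks and uses NAD to build poly(ADP-ribose), was the gene of that list that was lower with every compound. In carmustine-treated arrays it read 7.26, 8.29 and 8.82 (lowest, median, highest), against 9.91, 10.13 and 10.37 in controls. In lomustine-treated arrays it read 8.05, 8.45 and 8.91, against 10.15, 10.35 and 10.55. In streptozotocin-treated arrays it read 9.10, 9.50 and 9.94, against 9.66, 10.16 and 10.46, and there alone the ranges overlapped. The changes were -1.90 ± 0.22, -1.85 ± 0.12 and -0.59 ± 0.11 (limma adjusted p of 1.64e-05, 2.47e-09 and 0.00171). The streptozotocin change lost its call with a replicate block, at -0.52, and also when the arrays numbered 2 or 3 were left out, at -0.56 and -0.63.

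Of 22 measured genes of crosslink and recombination repair, 3 were higher and 1 lower with carmustine, 3 and 2 with lomustine, and 1 and 0 with streptozotocin. Of 17 genes of nucleotide excision repair, 4 were higher and 1 lower with carmustine and with lomustine, and 0 were called with streptozotocin. Among all genes, 9.3%, 11.8% and 1.72% were higher and 14.2%, 15.6% and 3.11% lower. Ercc1, the partner of the XPF nuclease that cuts beside crosslinks, was called higher with both chloroethylating compounds, and with 38 of the 114 compounds compared below. It read 9.93, 10.39 and 10.89 with carmustine, against 8.67, 8.84 and 9.13 in controls, and 10.28, 10.42 and 10.49 with lomustine, against 8.17, 8.53 and 8.75. Treated and control arrays did not overlap, and the changes were 1.57 ± 0.14 and 1.90 ± 0.09. With streptozotocin Ercc1 read 8.74, 9.13 and 9.33, against 8.44, 8.74 and 9.06, a change of 0.37 ± 0.11 that was not called (limma adjusted p of 0.0351). Rev3l, the catalytic subunit of translesion polymerase zeta, had changes of -1.46, -1.30 and -0.17 with carmustine, lomustine and streptozotocin, the last not called. Msh3 was the 1 called gene of the 6 measured mismatch repair genes, lower by 0.91, 1.01 and 0.70 on the log2 scale. With carmustine and lomustine, 1 of 6 was near the share of all genes that were lower, 14.2% and 15.6%. With streptozotocin that share was 3.11%, and the list is too short to be set against it. Msh3 was called lower with 28 of the 114 compounds compared below. The genes Rev3l and Msh3 span 158.2 kb and 141.5 kb. Of all genes of 100 to 300 kb, 32.2%, 37.9% and 11.5% were lower with carmustine, lomustine and streptozotocin. The streptozotocin call of Msh3 was lost with a replicate block, at -0.58, and without the arrays numbered 1 or 3, at -0.78 and -0.54. Its carmustine call was lost without the arrays numbered 2, at -0.81.

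H2ax, the histone that is phosphorylated beside breaks, had changes of 1.50 ± 0.20 with carmustine, 2.06 ± 0.10 with lomustine and 0.62 ± 0.13 with streptozotocin. Pcna, the replication clamp, had changes of 1.42 ± 0.15, 2.01 ± 0.11 and 0.78 ± 0.14. All 6 of these changes were called, although both streptozotocin calls were lost without the arrays numbered 3, at 0.58 and 0.66, and that of H2ax also without the arrays numbered 1, at 0.55. Ccnd1, which encodes cyclin D1, had changes of -2.95 ± 0.24 and -2.60 ± 0.36 with carmustine and lomustine, and of 0.73 ± 0.25 with streptozotocin, which missed the threshold (limma adjusted p of 0.0509). With a replicate block the streptozotocin change of Ccnd1 was called higher, at 0.92 ± 0.16 (adjusted p of 0.000722).

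The second feature common to the 3 compounds was the length of the genes that were lower. The 373 genes lower with all 3 had a median genomic length of 127.6 kb, the 133 genes higher with all 3 a median of 12.9 kb, and all 14205 genes with a length a median of 22.3 kb. Genes of 100 kb or more made up 60.3% of the shared lower genes (225 of 373), 0.752% of the shared higher genes (1 of 133) and 13.7% of all genes. Vps13b, a lipid transfer protein of the Golgi whose gene spans 576.6 kb (GRCr8 chr7:68436996-69013574), was lower in every treated array than in any of its controls. With carmustine it read 3.70, 4.29 and 5.01, against 6.83, 7.04 and 7.26 in controls, and with lomustine 3.94, 4.07 and 4.19, against 6.94, 7.02 and 7.29. With streptozotocin the 0.67 d arrays read 4.22, 3.36 and 3.96, against 7.09, 7.10, 6.76 and 7.11, and the 1 d arrays read 5.83, 4.91 and 4.94, against 7.51, 7.22, 7.20 and 7.20. The changes were -2.76 ± 0.19, -2.997 ± 0.07 and -2.61 ± 0.21 (limma adjusted p of 4.93e-07, 1.35e-13 and 2.59e-06). Treated readings of Vps13b went down to 3.36, near the low end of the scale, where signal over background is small, so these changes can understate the true ones.

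Magi1, a scaffold of tight junctions whose gene spans 605.6 kb, had changes of -2.84 ± 0.20 with carmustine, -3.15 ± 0.18 with lomustine and -1.86 ± 0.26 with streptozotocin. Its streptozotocin arrays read 5.26, 4.69 and 5.14 at 0.67 d, against 7.77, 7.14, 7.22 and 7.83, and 7.33, 5.77 and 6.45 at 1 d, against 7.92, 7.28, 7.81 and 8.09, so that 1 treated array at 1 d lay within the control range, and the call was lost without the arrays numbered 3, at -1.91. Slc4a4, a sodium bicarbonate cotransporter spanning 452.0 kb, had changes of -4.15 ± 0.36, -4.94 ± 0.29 and -1.85 ± 0.17. Not every shared lower gene was long: Slc25a23, a mitochondrial ATP-magnesium carrier of 15.7 kb, had changes of -2.75 ± 0.23, -2.91 ± 0.23 and -2.32 ± 0.25, and Cav1, the coat protein of caveolae at 33.1 kb, of -2.90 ± 0.31, -4.08 ± 0.21 and -1.90 ± 0.42, the last of which lost its call without the arrays numbered 3, at -2.08.

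The relation to length was first taken over all genes. With streptozotocin the share that was lower was 0.643% for genes under 10 kb, 1.17% for 10 to 30 kb, 2.62% for 30 to 100 kb, 11.5% for 100 to 300 kb and 20.6% for the 431 genes over 300 kb. With carmustine it was 7.92%, 9.88%, 17.2%, 32.2% and 26.9%, and with lomustine 7.1%, 10.7%, 19.7%, 37.9% and 29.2%, so that with both it was lower over 300 kb than in the class before. The median change of the genes over 300 kb was 0.02 with carmustine, 0.01 with lomustine and -0.06 with streptozotocin, against 0.16, 0.17 and 0.04 for genes under 10 kb.

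The values were larger among the 9470 genes of higher mean level, which hold 144 of the 431 genes over 300 kb. This restriction was chosen after the data were seen. Among them the share that was lower was higher in each longer class. With streptozotocin it was 1.04% for genes under 10 kb, 1.62% for 10 to 30 kb, 3.39% for 30 to 100 kb, 17% for 100 to 300 kb and 50.7% for the 144 genes over 300 kb. With carmustine it was 11.7%, 12.8%, 22.5%, 46.9% and 69.4%, and with lomustine 10.5%, 13.8%, 25.9%, 55.3% and 74.3%. The median change of the 144 genes over 300 kb was -1.03 with carmustine, -1.24 with lomustine and -0.65 with streptozotocin, against 0.16, 0.24 and 0.07 for genes under 10 kb. The gap between both ends is a difference within an array, on which subtracting an array median has no bearing.

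The same gap was taken in each array singly, again over the 9470 genes, as the median change of genes of 100 kb or more minus that of genes under 10 kb, each array set against the other control arrays of its compound and time. It ran between -1.09 and -0.53 in carmustine-treated arrays with a median of -0.74, against -0.07 to 0.04 in controls. In lomustine-treated arrays it ran between -1.08 and -0.89 with a median of -0.99, against -0.14 to 0.32 in controls, and the value of 0.32 belonged to the 0.67 d control numbered 4. In streptozotocin-treated arrays it ran between -0.49 and -0.14 with a median of -0.36, against -0.11 to 0.06 in controls. All 18 treated arrays lay below all of their controls. Over all genes, in the fit of each compound, the gap was smaller, at -0.273 with carmustine, -0.345 with lomustine and -0.123 with streptozotocin.

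**Figure D2:**
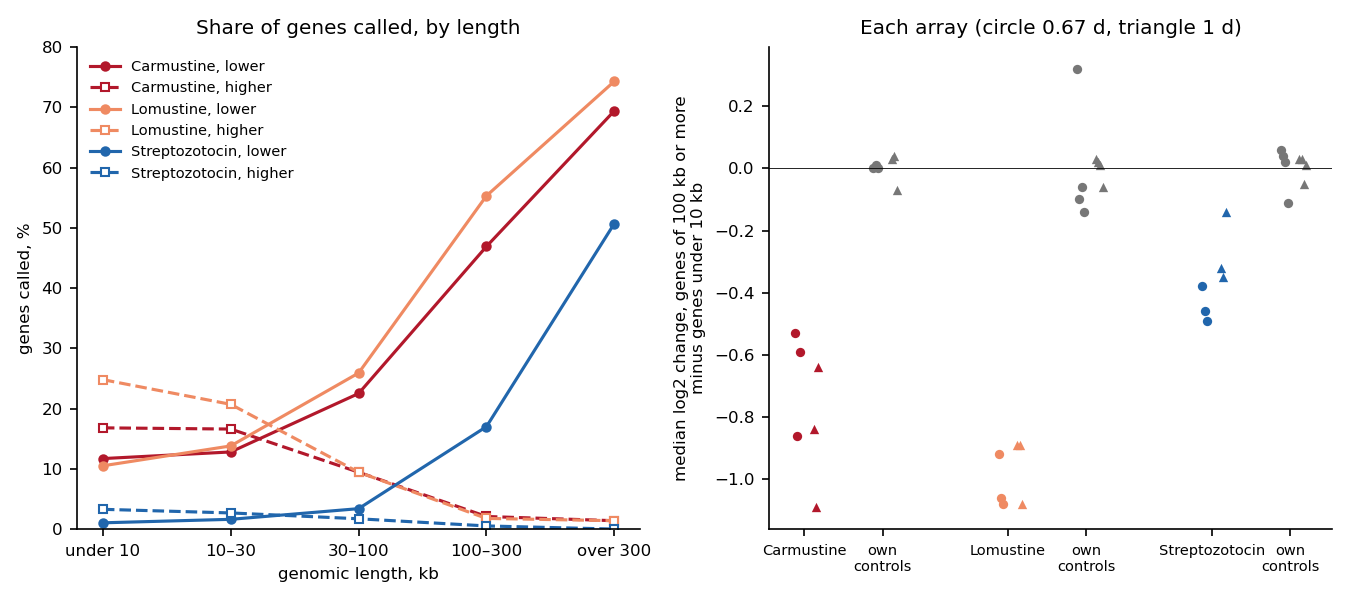
Left: share of genes called lower (filled) and higher (open, dashed), in percent, by genomic length in kb, for the 9470 genes of higher mean level; over all genes the lower share above 300 kb was 26.9% with carmustine, 29.2% with lomustine and 20.6% with streptozotocin. Right: for each array and the same 9470 genes, the median log2 change of genes of 100 kb or more minus that of genes under 10 kb, treated arrays coloured and own controls grey; the treated arrays reach down to -1.09, and the lomustine control at 0.32 is the 0.67 d control numbered 4.

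Carmustine and lomustine, given at doses 10 µM apart, were compared gene by gene as the change with carmustine minus the change with lomustine, each against its own controls; this was the 1 pair compared. Their changes correlated at r = 0.953 across genes, which are not independent replicates. Of the called genes, 2953 were called with both in the same direction and 0 in opposite directions, which was 88.4% of the carmustine calls and 75.8% of the lomustine calls. Among these 2953, the change was larger with lomustine in 2033 and larger with carmustine in 920, and the median size was 0.99 with carmustine and 1.10 with lomustine. The 95% confidence interval of the difference lay within 2-fold either way for 2664 of the 2953. For the remainder, a difference of 2-fold or more was within the interval.

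**Figure D3:**
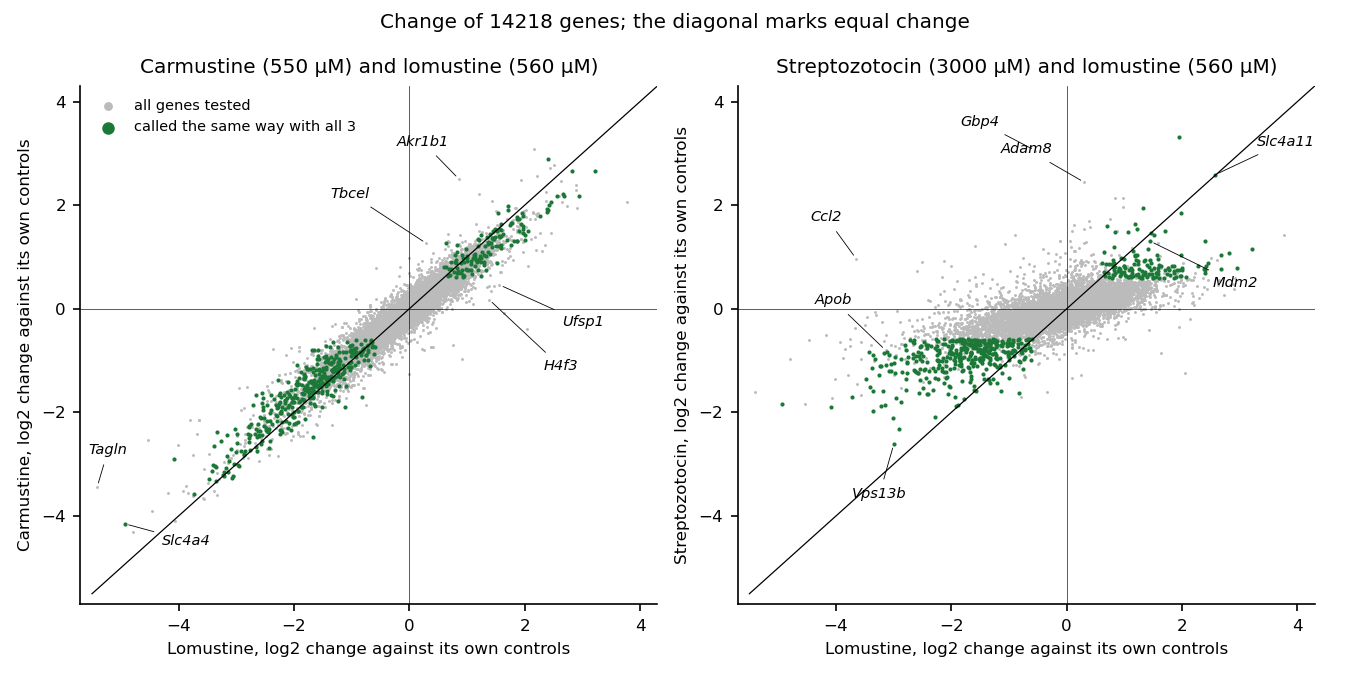
Log2 change of each of 14218 genes against its own controls: carmustine (vertical) against lomustine (horizontal) on the left, streptozotocin (vertical) against lomustine (horizontal) on the right, where the doses differ; green points are the 506 genes called the same way with all 3 and the diagonal marks equal change. Carmustine and lomustine lie along the diagonal, with Akr1b1 and Tbcel above it and Ufsp1 and H4f3 below it.

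Of the 14218 genes, 4 differed between carmustine and lomustine (0.0281%), and 1324 had an unadjusted p under 0.05. Akr1b1, an aldose reductase that turns glucose into sorbitol and clears aldehydes, read 7.36, 8.42 and 9.39 in carmustine-treated arrays, against 5.66, 5.85 and 6.14 in controls. In lomustine-treated arrays it read 6.36, 6.44 and 6.75, against 5.48, 5.59 and 6.02. It was higher with both compounds, with no overlap, and the change was larger with carmustine by 1.65 ± 0.25 (95% interval 1.14 to 2.15; limma adjusted p of 0.00272). With the median of the gene's probe sets in place of 1 probe set, that difference was 0.76 and was not called. Tbcel, a tubulin-binding protein, read 10.35, 10.99 and 11.15 with carmustine, against 9.41, 9.62 and 9.73, and 9.71, 10.00 and 10.19 with lomustine, against 9.48, 9.64 and 9.83. The lomustine arrays overlapped their controls and the carmustine arrays did not, and the difference was 0.96 ± 0.16 (0.64 to 1.29; adjusted p of 0.00901).

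The other 2 genes had the larger change with lomustine. Ufsp1, a protease of the ubiquitin-like modifier UFM1, read 6.72, 7.08 and 7.45 in lomustine-treated arrays, against 5.22, 5.54 and 5.66, and 6.01, 6.22 and 6.56 in carmustine-treated arrays, against 5.58, 5.75 and 6.01. The lomustine arrays did not overlap their controls, and the carmustine arrays met theirs at 6.01. The difference, carmustine minus lomustine, was -1.10 ± 0.14 (-1.38 to -0.82; limma adjusted p of 0.000299). H4f3, annotated as a histone H4 gene, read 4.49, 4.95 and 5.50 in lomustine-treated arrays, against 3.35, 3.58 and 3.65, and 3.47, 3.80 and 4.11 in carmustine-treated arrays, against 3.47, 3.66 and 3.71. There too the lomustine arrays were apart from their controls, and the carmustine arrays overlapped theirs. The difference was -1.20 ± 0.16 (-1.53 to -0.88; adjusted p of 0.000412). Leaving out the arrays numbered 2 brought the count of differing genes to 0, leaving out those numbered 3 brought it to 1, and leaving out the controls numbered 4 brought it to 2.

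Some of the larger differences in size did not pass the threshold. Pdk4, the kinase that closes the pyruvate dehydrogenase complex in fasting, had changes of 2.05 ± 0.33 with carmustine and 3.77 ± 0.19 with lomustine, a difference of -1.71 with a 95% interval of -2.53 to -0.90 (limma adjusted p of 0.089). Tagln, an actin-binding protein of contractile cells, had changes of -3.44 ± 0.34 and -5.41 ± 0.22, a difference of 1.97 with an interval of 1.08 to 2.86 (adjusted p of 0.0632). Idi1 and Hsd17b7, enzymes of cholesterol synthesis, were called with lomustine alone, at 1.46 ± 0.20 and 1.10 ± 0.19, against 0.43 ± 0.18 and 0.10 ± 0.19 with carmustine. Neither difference passed the adjusted threshold, and that of Idi1 was -1.03 with an interval of -1.63 to -0.44. Of the 945 genes called with lomustine alone, 2 were among those that differed, and of the 389 called with carmustine alone, 1 was.

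**Figure D4:**
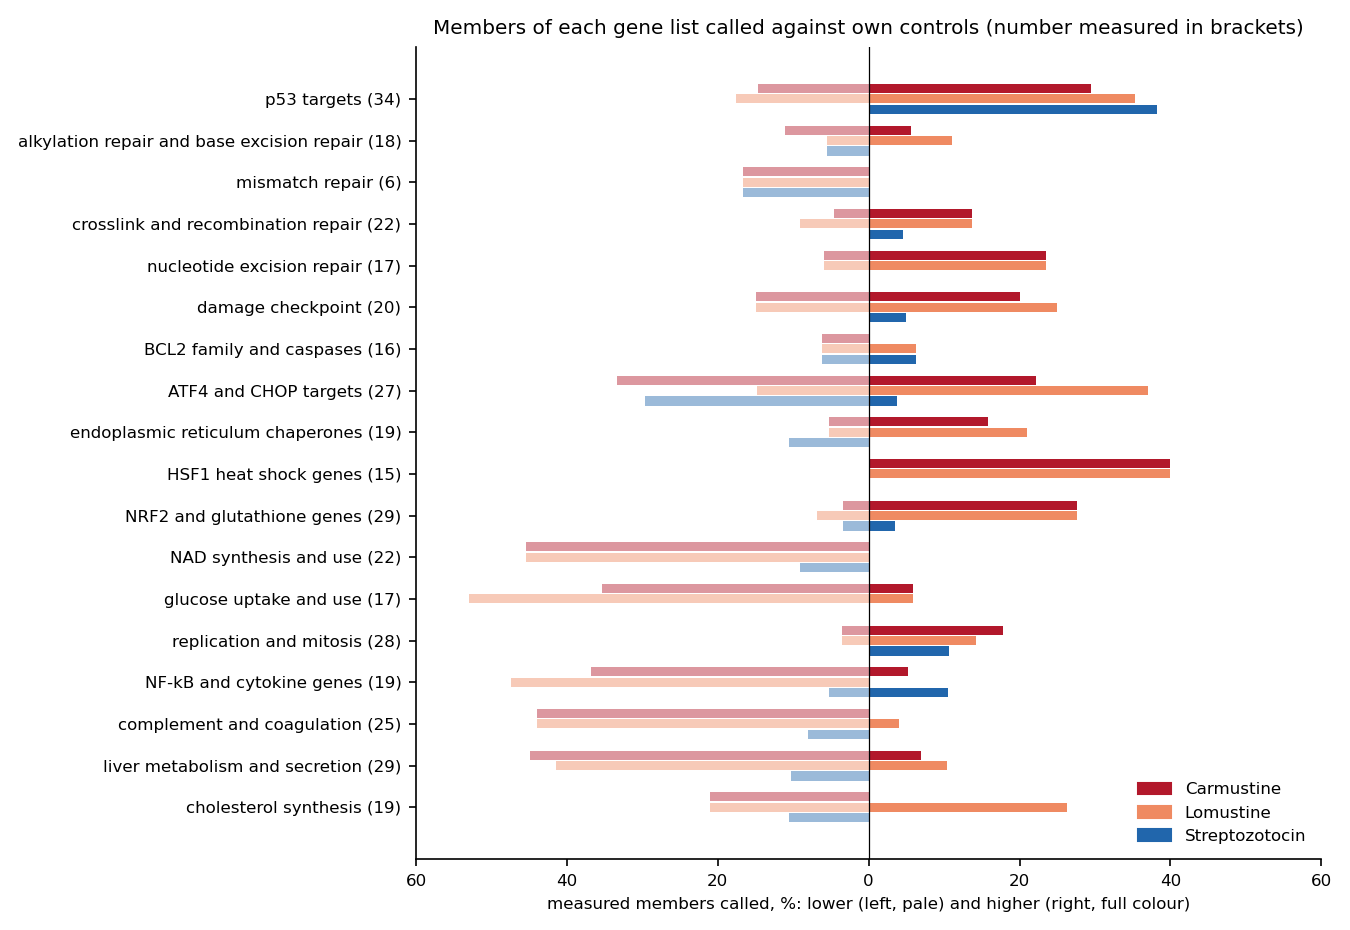
Percentage of the measured members of each of 18 gene lists (number measured in brackets) that were called higher (right, full colour) or lower (left, pale) with each compound against its own controls. The p53 targets include lower members with carmustine and lomustine and 0 with streptozotocin. The heat shock genes include 6 higher members with carmustine, 6 with lomustine and 0 with streptozotocin. Among all genes, 14.2%, 15.6% and 3.11% were lower and 9.3%, 11.8% and 1.72% higher with carmustine, lomustine and streptozotocin. The lower p53 targets with carmustine and lomustine were a share near that of all genes. The lists are too short to set a count of 0 against the streptozotocin shares.

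Heat shock genes, which encode chaperones, were among those called higher with the chloroethylating compounds. Of 15 measured HSF1 heat shock genes, 6 were higher and 0 lower with carmustine, 6 were higher and 0 lower with lomustine, and 0 were called with streptozotocin, against 9.3%, 11.8% and 1.72% of all genes higher, with medians of 0.30, 0.57 and 0.21. The carmustine count was 3 without the arrays numbered 1, and the lomustine count was 10 with the array median subtracted. Hspa1a, which encodes the inducible chaperone HSP70, read 10.67, 11.27 and 12.06 in lomustine-treated arrays, against 8.42, 8.84 and 9.93 in controls, with no overlap, and had a change of 2.30 ± 0.27. With carmustine it read 9.58, 10.01 and 11.42, against 8.36, 9.33 and 9.86, with overlap, and had a change of 1.12 ± 0.32 at a limma adjusted p of 0.00987. That call was lost without the arrays numbered 1, at 0.70, and those numbered 2, at 1.10. With streptozotocin Hspa1a had a change of 0.21 ± 0.23 (adjusted p of 0.623). Zfand2a, an arsenite-inducible proteasome adaptor, had changes of 2.07 ± 0.15 and 2.37 ± 0.11 with carmustine and lomustine, and of 0.59 ± 0.24 with streptozotocin, which was not called. Zfand2a was called higher with 70 of the 114 compounds compared below and lower with 1. By the median of the heat shock list, lomustine ranked 8 of the 114, carmustine 28 and streptozotocin 34. Of 29 measured NRF2 and glutathione genes, 8 were higher and 1 lower with carmustine, and 8 were higher and 2 lower with lomustine (9.3% and 11.8% of all genes higher, 14.2% and 15.6% lower), among them Srxn1 at 1.19 and 1.43, Nqo1 at 1.03 and 1.44 and Hmox1 at 1.05 and 0.94. With streptozotocin 1 was higher, Srxn1 at 0.80, and 1 was lower (1.72% and 3.11% of all genes); 0 were called without the arrays numbered 3, and 4 with a replicate block, among them Nqo1 at 0.83. Gsr, glutathione reductase, had changes of 0.25 ± 0.25, 0.28 ± 0.19 and 0.00 ± 0.18 and was not called with any of them.

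Targets of ATF4 and CHOP, the transcription factors of the integrated stress response, were called in both directions. Of 27 measured genes, 6 were higher and 9 lower with carmustine, 10 higher and 4 lower with lomustine, and 1 higher and 8 lower with streptozotocin, and the medians were -0.07, 0.37 and -0.41. Of all genes, 9.3% were higher and 14.2% lower with carmustine, 11.8% and 15.6% with lomustine, and 1.72% and 3.11% with streptozotocin, so the lower members with lomustine were a share near that of all genes. Under subtraction of the array median, the carmustine median changed sign, to 0.18, and without the arrays numbered 3 streptozotocin called 5 members. Ddit3, which encodes CHOP, read 10.05, 10.69 and 11.39 with carmustine, against 7.76, 8.81 and 9.58, and 10.87, 11.49 and 11.68 with lomustine, against 8.06, 8.57 and 9.38. With streptozotocin it read 8.84, 9.44 and 10.05, against 7.90, 9.07 and 10.25, inside the control range. The changes were 1.98 ± 0.24, 2.73 ± 0.16 and 0.27 ± 0.22. Ddit3 was called higher with 67 of the 114 compounds compared below. Among the members lower with each compound, Phgdh, an enzyme of serine synthesis, had changes of -1.71, -0.82 and -1.63, and Cth, which makes cysteine out of cystathionine, of -2.47 ± 0.24, -1.66 ± 0.28 and -1.36 ± 0.22, with all 6 changes called. The streptozotocin call of Cth was lost without the arrays numbered 3, at -1.32.

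The promoters of this list were searched for the amino acid response element, the motif TGATGNAAN bound by ATF4 with its partners, on both strands within 250 bases upstream of the RefSeq start (GRCr8). It was present in 6 of the 26 list promoters in the table and in 3.25% of all 27457 promoters (893). Windows of 30 bases from 4 of them are shown because they belong to genes that moved in opposite ways, written along the gene's own strand, with capitals marking the motif, which lies on the opposite strand in each.
Nupr1 (chr1:190645938-190645967, minus strand): aaaaggccagATTGCATCAgacagggcttg
Trib3 (chr3:161275536-161275565, minus strand): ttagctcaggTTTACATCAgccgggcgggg
Chac1 (chr3:126795953-126795982, plus strand): cttctccgccGTTGCATCActcctgctagg
Pck2 (chr15:32997603-32997632, plus strand): agccttcaaaGTTACATCAgtatccttgca
Nupr1, a stress-induced chromatin protein, had changes of 1.05 with carmustine and 1.35 with lomustine, both called, and of 0.17 with streptozotocin. Trib3, a pseudokinase that restrains ATF4, had changes of 0.63 with lomustine, called, and of 0.16 and -0.01 with carmustine and streptozotocin. Chac1, which degrades glutathione, had changes of -0.79 with streptozotocin, called, and of -0.73 and 0.37 with carmustine and lomustine. Pck2, the mitochondrial phosphoenolpyruvate carboxykinase, was lower with all 3, at -0.98, -0.72 and -0.93. The presence of the motif is a description of these windows and of nothing beyond them.

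A set of 121 genes was called with streptozotocin and with neither of the other compounds, although the difference between compounds was not tested, since the doses differed. Adam8, a membrane metalloprotease of leukocytes and injured tissue, read 7.91, 5.74 and 6.09 at 0.67 d, against 4.77, 4.20, 4.35 and 4.39 in controls, and 8.72, 6.06 and 6.72 at 1 d, against 4.56, 4.14, 4.42 and 4.64. The groups did not overlap, the arrays numbered 1 were highest at both times, and the change was 2.44 ± 0.38, which lost its call without the arrays numbered 3, at 2.66. Its changes were 0.07 ± 0.10 with carmustine and 0.31 ± 0.12 with lomustine. Gbp4, an interferon-induced guanylate-binding protein, read 7.41, 8.76 and 9.83 (lowest, median, highest), against 4.99, 5.51 and 7.39, and had a change of 3.06 ± 0.41 (limma adjusted p of 0.000134), against -0.96 ± 0.44 and -0.55 ± 0.38 with carmustine and lomustine, neither of them called.

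Cytokine genes also pointed in different directions. Of 19 measured NF-kB and cytokine genes, 1 was higher and 7 lower with carmustine, 0 higher and 9 lower with lomustine, and 2 higher and 1 lower with streptozotocin, with medians of -0.55, -0.81 and 0.15. Of all genes, 14.2%, 15.6% and 3.11% were lower and 9.3%, 11.8% and 1.72% higher. Streptozotocin called 0 of them without the arrays numbered 1 or 3, and carmustine called 5 without those numbered 2. Ccl2, the chemokine that draws monocytes, read 6.37, 7.18 and 7.73 with carmustine, against 8.80, 9.37 and 9.80, and 4.82, 6.23 and 8.17 with lomustine, against 8.84, 9.93 and 11.81. With streptozotocin it read 8.26, 9.07 and 9.84, against 6.84, 7.97 and 9.08. The first 2 compounds left every treated array below its controls, by 2.15 ± 0.24 and 3.65 ± 0.52 on the log2 scale, and the streptozotocin change of 0.97 ± 0.33 was not called (limma adjusted p of 0.0498). Cxcl1, which draws neutrophils, had changes of -1.63 ± 0.17, -2.01 ± 0.17 and 0.82 ± 0.19, and was called in each case, so it was 1 of 5 genes called in opposite directions with streptozotocin and carmustine. Its streptozotocin call was lost without the arrays numbered 1 or 3, at 0.72 and 0.93.

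Genes of liver metabolism were called lower with the chloroethylating compounds. Of 29 measured genes of liver metabolism and secretion, 13 were lower with carmustine, 12 with lomustine and 3 with streptozotocin, against 14.2%, 15.6% and 3.11% of all genes, and 2, 3 and 0 were higher, against 9.3%, 11.8% and 1.72%. The streptozotocin count was 1 without the arrays numbered 3 and 5 with a replicate block. Apob, the structural protein of very-low-density lipoprotein, read 8.42, 9.27 and 9.73 with carmustine, against 11.86, 12.25 and 12.32 in controls. It read 8.88, 9.21 and 9.79 with lomustine, against 12.25, 12.42 and 12.97, and 10.18, 11.31 and 11.89 with streptozotocin, against 11.37, 12.13 and 12.37. The groups were apart with carmustine and lomustine, at -2.97 ± 0.21 and -3.14 ± 0.13, and overlapped with streptozotocin, at -0.80 ± 0.20 (limma adjusted p of 0.0125, not called). With a replicate block the streptozotocin change of Apob was called, at -0.73 ± 0.18 (adjusted p of 0.00935). Mttp, which loads lipid onto apolipoprotein B, had changes of -3.003 ± 0.23, -3.04 ± 0.13 and -1.07 ± 0.22, and Cps1, the first enzyme of the urea cycle, of -2.43 ± 0.16, -2.98 ± 0.14 and -0.92 ± 0.15. All 6 were called, and the streptozotocin calls were lost without the arrays numbered 3, at -0.92 and -0.87. Lower calls of these genes were not particular to the nitrosoureas. Apob, Mttp and Cps1 were called lower with 65, 72 and 70 of the 114 compounds compared below, and higher with 3, 6 and 3.

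Genes of NAD synthesis and use were lower without exception among those called: 10 of 22 with carmustine, 10 with lomustine and 2 with streptozotocin, against 14.2%, 15.6% and 3.11% of all genes, and 0 were higher. Streptozotocin called 0 of them without the arrays numbered 3 and 1 with a replicate block. Qprt, which makes NAD precursors out of tryptophan products, had changes of -1.59 and -1.71 with carmustine and lomustine and of -0.63 with streptozotocin, which was not called. Nnt, the mitochondrial transhydrogenase that couples NADH to NADPH, had changes of -2.37 ± 0.20, -2.63 ± 0.16 and -1.20 ± 0.20, and its streptozotocin call was lost without the arrays numbered 2 or 3, at -1.15 and -1.10. Slc2a2, which encodes GLUT2, read 9.96, 10.12 and 10.35 with carmustine, against 10.97, 11.11 and 11.22, and 10.18, 10.44 and 10.68 with lomustine, against 10.91, 11.32 and 11.54. With streptozotocin it read 10.60, 10.71 and 10.77, against 11.05, 11.12 and 11.24. All treated arrays lay below their controls, and the changes were -0.97 ± 0.09, -0.82 ± 0.10 and -0.44 ± 0.06, the last at a limma adjusted p of 0.000125 but under the fold bound.

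Some markers of other liver cells were called, most of them with carmustine and lomustine. Of 6 measured endothelial markers, 4 were lower with carmustine, where their mean level ran between 4.95 and 5.74 in treated arrays against 5.92 to 6.79 in controls, and 2 were lower with lomustine, where it ran between 4.43 and 5.18 against 5.41 to 6.07. With streptozotocin 0 were called, and the levels overlapped, at 4.61 to 5.79 against 4.70 to 6.32. Of 8 stellate cell markers, 2, 3 and 1 were lower with carmustine, lomustine and streptozotocin. Of 7 Kupffer cell markers, 1 was higher with lomustine, and none of 6 cholangiocyte markers was called. The 9 hepatocyte markers had a mean of 12.25 with carmustine, against 12.73 in controls, 12.31 with lomustine, against 12.74, and 12.59 with streptozotocin, against 12.68, and 2, 2 and 1 of them were lower. Of all genes, 14.2%, 15.6% and 3.11% were lower, and these lists are too short for their shares to be set against that closely. Fewer cells of a type and less RNA per cell cannot be told apart in such samples, and the part of these cell types in the results above was not tested.

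Exposure time altered few calls by the test of the difference itself. The change at 1 d minus that at 0.67 d passed the threshold for 9 genes with lomustine (0.0633%), 5 higher and 4 lower. It did so for 0 genes with carmustine and 0 with streptozotocin. The lomustine count was 48 with a replicate block, whose numbers pair the lomustine arrays. It was 0 without the arrays numbered 1, 2 or 3 or the controls numbered 4. An unadjusted limma p under 0.05 was found for 1976 genes with lomustine, 690 with carmustine and 671 with streptozotocin. Chance alone would give about a fraction of 0.05 of the 14218 genes tested. In this fit the carmustine and streptozotocin counts were no more than that, and the lomustine count was above it. With a replicate block, whose numbers also pair the streptozotocin arrays, the streptozotocin count was 1538, which was above it too. The count was then 2914 with lomustine and 895 with carmustine. With streptozotocin 0 genes passed the threshold under the replicate block. Cobll1 had a change of -0.99 at 0.67 d and 0.46 at 1 d with lomustine, and Tchh, the hair follicle protein trichohyalin, of 0.65 and 2.41. Dpyd, the enzyme that degrades pyrimidines, had changes of -1.67 at 0.67 d and -2.96 at 1 d. Fitted at each time, streptozotocin called 633 genes at 0.67 d (4.45%) and 149 at 1 d (1.05%), carmustine 2175 (15.3%) and 3067 (21.6%), and lomustine 3659 (25.7%) and 4030 (28.3%).

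The 3 compounds were also placed among the 114 compounds of the series that had 3 arrays at each time at 1 dose, each compound at its own dose and against its own controls. By the number of genes called, lomustine ranked 4, carmustine 8 and streptozotocin 69. By the median change of the p53 target list, streptozotocin ranked 3 at 0.572, after the topoisomerase poison idarubicin at 0.768 and the platinum crosslinker cisplatin at 0.599, while lomustine ranked 9 at 0.279 and carmustine 19 at 0.129. By the median of the ATF4 and CHOP list, streptozotocin had the lowest value of the 114, -0.406. By that median carmustine ranked 105 at -0.071 and lomustine 71 at 0.373. For single genes, Cdkn1a was called higher with 33 compounds and its change ranked 1 with carmustine, 4 with lomustine and 28 with streptozotocin, and Lig4 was called higher with 16 and ranked 5, 2 and 3.

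The gap between long and short genes, here over all genes, was calculated for the same compounds after the pattern had been seen. The 8 lowest values were those of cisplatin at -0.593, ifosfamide at -0.391, lomustine at -0.345, monocrotaline at -0.308, carmustine at -0.273, cyclophosphamide at -0.239, N-nitrosodiethylamine at -0.135 and streptozotocin at -0.123. Cisplatin, ifosfamide and cyclophosphamide are crosslinking drugs, and monocrotaline and N-nitrosodiethylamine are turned by the liver into DNA-binding products. Other DNA-damaging compounds lay further up the order: doxorubicin at -0.064 (rank 15), the crosslinking mustard chlorambucil at -0.062 (rank 17), the topoisomerase poison etoposide at -0.043 (rank 30) and daunorubicin at -0.033 (rank 50), while idarubicin was at -0.071 (rank 12). Also between the first 8 and doxorubicin lay staurosporine at -0.099 (rank 9), 1-naphthyl isothiocyanate at -0.074 (rank 10) and diethylstilbestrol at -0.073 (rank 11). Rapamycin and D-galactosamine were there too, each at -0.069 (rank 13). Whether the gap follows DNA damage was not tested. By the labels, ifosfamide, staurosporine and rapamycin share control arrays with carmustine. Cyclophosphamide, idarubicin, doxorubicin and rapamycin share control arrays with lomustine. Those values are therefore not independent of each other. Chlorambucil and daunorubicin share control arrays too. The lomustine control array that stood apart above is also labelled as a control for the compounds that share the lomustine controls. Its effect on their gaps was not tested. Across genes, and among compounds with no shared control arrays, the profile of streptozotocin correlated best with that of N-nitrosodiethylamine (r = 0.763, of 100 compounds), which ranked ahead of lomustine (rank 4, r = 0.696) and carmustine (rank 7, r = 0.676). That of lomustine correlated best with carmustine (r = 0.953), then ifosfamide (0.873) and cisplatin (0.859), of 97 compounds. The genes shared by the nitrosoureas were not particular to them: each of the 133 shared higher genes was called higher with a median of 21 of the other 111 compounds, each of the 373 shared lower genes was called lower with a median of 28, and none was called with 0 others.

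**Figure D5:**
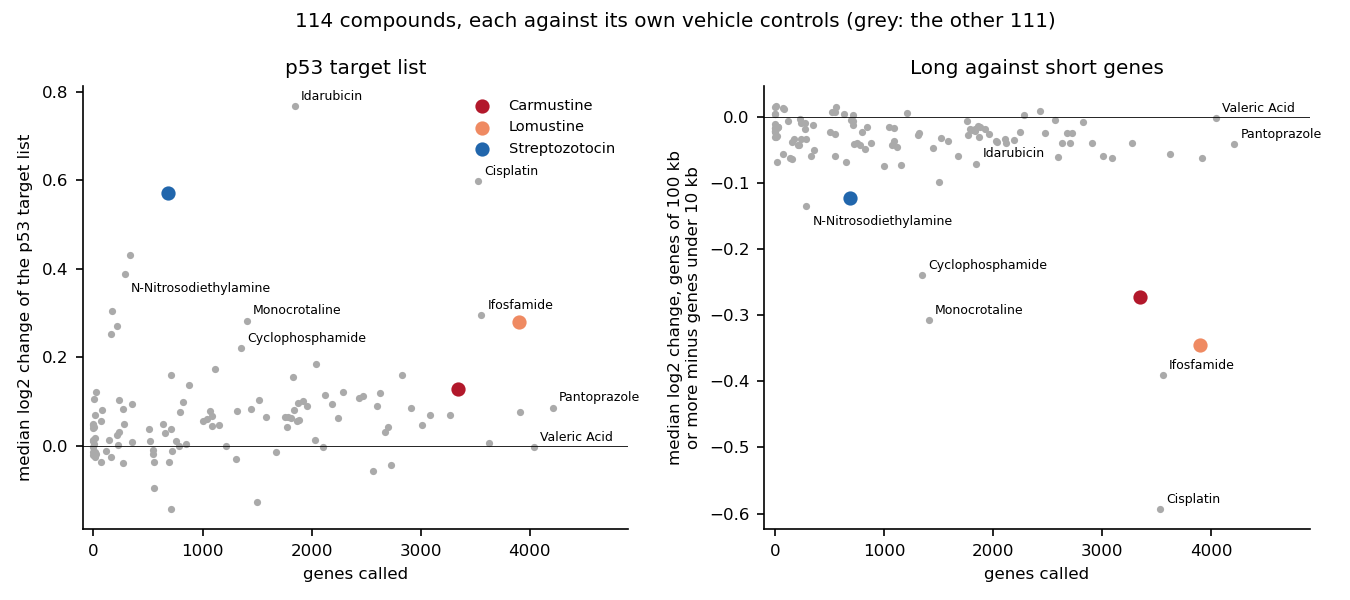
Each of 114 compounds at its own dose, by the number of genes called (horizontal) and by the median log2 change of the p53 target list (left, vertical) or the median change of genes of 100 kb or more minus that of genes under 10 kb (right, vertical), with the nitrosoureas coloured and the other 111 compounds in grey. Streptozotocin lies high on the left panel, at 0.572 with 687 genes called, and lomustine and carmustine lie low on the right panel, at -0.345 and -0.273.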

How the data were processed

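Poly(A) RNA of each culture was hybridised to Affymetrix rat arrays. The authors deposited log2 expression values for 31099 probe sets, normalised by RMA per the processing notes (version not given in the sources used here). All 939 columns matched a sample, and 0 columns had none. Probe sets were named through GEO's platform annotation, updated to RefSeq: 20832 had 1 symbol, of which 20818 matched RefSeq and 14 kept the annotation's symbol, 436 had several and 9831 had none, and the last 2 kinds were left out. A gene with several probe sets (4526 of 14218) was represented by 1 probe set, with the median of its probe sets as an alternative. Array number and signal limit the precision, and no read depth applies.

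limma 3.58.1 in R 4.3.3 (lmFit, eBayes) was run for each compound with treatment and exposure time, for carmustine against lomustine in 1 fit, and with the interaction of treatment and time; p-values were adjusted by Benjamini-Hochberg over all genes. The study's methods gave the bounds (adjusted p of 0.01, 1.5-fold) and the correction for time. Tables and figures used Python 3.11.15, numpy 2.4.6, pandas 2.3.3 and matplotlib 3.10.9. The fits of each compound and of the pair were tested on simulated data with noise independent between arrays. The interaction fit was not tested in this way. Of 100 genes given a 2-fold change, 85 were recovered with carmustine, 96 with lomustine, 93 with streptozotocin and 85 for the pair.

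The named genes were, for each compound, the 10 called genes with the largest change in each direction, the 10 in each direction among those shared by all 3, the 8 largest differences in each direction for the pair, the 3 largest in each direction for the time interaction, up to 5 called members of each list, and Cdkn1a, Mdm2, Ccng1, Mgmt, Mpg, Parp1, Gsr, Slc2a2, Gdf15 and Btg2. Other list members named above were chosen after their values were seen. The compounds, the gene lists and the genes were chosen with earlier results of these data known, and the ranking of compounds by gene length was added after the pattern was seen. Lists were described by counts and medians, without a test.

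Replicate numbers in the labels were checked for pairing by the correlation of residuals of same-numbered treated and control arrays. It was over 0.1 in 6 of 6 pairs for lomustine (mean 0.38), whose same-numbered arrays also shared an RNA extraction day, and in 6 of 6 for streptozotocin (mean 0.423), and in 2 of 6 for carmustine (mean 0.124). The numbers were taken to pair the arrays of lomustine and streptozotocin, although for lomustine pairing and extraction day cannot be told apart. The main fit did not use this pairing, and a replicate block was run as an alternative. Alternatives were an unmoderated linear model, a 2-fold bound, subtraction of the array median, quantile normalisation, the median of probe sets, leaving out genes of low mean level, hybridisation day as a random effect or fixed block, RNA extraction day as a fixed block, a replicate block, each replicate left out, each time alone, the control arrays of all 3 compounds, and, chosen after the data were seen, leaving out the control arrays numbered 4.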

Additional observations from a re-analysis of the deposited data

Results flagged for a closer look

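In 72 groups of 4 control arrays tested for single genes, 4 held an array far from the other 3, and chance alone flags about 1 in 20 such groups. Cdkn1a read 9.69 in the lomustine control at 1 d numbered 1, against 10.50 to 10.58 in the other 3. Hspa1a read 9.57 in the lomustine control at 1 d numbered 4, against 8.42 to 8.62. Vps13b read 6.76 in the streptozotocin control at 0.67 d numbered 3, against 7.09 to 7.11, and 7.51 in the control at 1 d numbered 1, against 7.20 to 7.22.

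The change with carmustine minus the change with lomustine passed the threshold for Akr1b1 at 1.65, Tbcel at 0.96, H4f3 at -1.20 and Ufsp1 at -1.10 (limma). The change at 1 d minus that at 0.67 d with lomustine passed it for Tchh at 1.75, Cobll1 at 1.45, Hcfc2 at 1.29, Lyst at 1.25, Tmem131l at 1.08, Adtrp at -0.94, Lhpp at -1.06, Fggy at -1.20 and Dpyd at -1.29, and for 48 genes with a replicate block.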

How the results depend on the processing

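All alternatives were run, and under them no change of a named gene that was called as reported turned direction; among all genes, 2 called with carmustine and 2 with lomustine were called in the opposite direction with the median of their probe sets; the median of the ATF4 and CHOP list with carmustine, -0.07, turned positive under 5 settings, at 0.18 with the array median subtracted, 0.04 and 0.03 with hybridisation and RNA extraction day as fixed blocks, 0.03 in the 1 d arrays alone and 0.06 without the arrays numbered 2. Of the changes of named genes under the alternatives, 4672 kept their call and 374 lost it. With a 2-fold bound the counts were 1494 with carmustine, 1826 with lomustine, 188 with streptozotocin and 132 shared by all 3. From the 0.67 d arrays alone they were 2042 with carmustine, 383 with streptozotocin and 207 shared, and from the 1 d arrays alone 31 with streptozotocin and 20 shared, where fewer arrays entered each fit. With hybridisation day as a fixed block 318 genes were shared. The 4 genes differing between carmustine and lomustine became 2 with an unmoderated linear model, 2 with hybridisation day as a fixed block, and 0 with the arrays of either time alone. The 9 genes whose change differed between times with lomustine became 0 with the unmoderated model, 4 with the array median subtracted, 21 and 22 with hybridisation day as a random effect and as a fixed block, 48 with RNA extraction day as a fixed block and 48 with a replicate block. For lomustine the last 2 settings are the same fit, since extraction day went with replicate number. The cause of these shifts in count was not tested.

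With each replicate left out in turn, the counts ran between 2362 and 3748 with carmustine, 3778 and 4067 with lomustine, 309 and 582 with streptozotocin, and 196 and 411 for the shared genes, where the lowest values of 309 and 196 came without the arrays numbered 3. They ran between 0 and 4 for the pair and were 0 for the time interaction with lomustine. Without the control arrays numbered 4, chosen after the data were seen, the counts were 3792 with lomustine, 560 with streptozotocin, 381 shared, 2 for the pair and 0 for the lomustine interaction. With a replicate block, which pairs lomustine and streptozotocin arrays and for carmustine only shares numbers, the counts were 3446, 3872, 813, 571 shared and 5 for the pair. It also took the calls of Parp1, Msh3 and Mbl2 with streptozotocin and of Ube2t with lomustine, and, among the genes named above, added those of Cdkn1a, Ccnd1, Apob, Nqo1 and Pdk4 with streptozotocin. H4f3 lay between 3.35 and 5.50, near the low end of the scale, where signal over background is small.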
